A study of Mus musculus with 42 samples.

Results

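The nucleolar ribosome biogenesis factors are the proteins that fold, cut and modify ribosomal RNA and assemble it with ribosomal proteins into the small and the large subunit. Members were chosen by symbol: all annotated genes named Nop, Utp or Rrp with a number, Noc2l, Noc3l and Noc4l, and a fixed set of further factors such as Fbl, Dkc1, Npm1, Ncl and Bop1. Of the 18194 named genes on the arrays, 48 were members, and all 48 were among the 15479 genes bright enough to test. Mrto4, also on the list, had no probe set named for it. Each gene was read from its brightest probe set, a group of short probes against 1 transcript. Their symbols, not their values, chose them.

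Levels were measured on 42 Affymetrix arrays of B6D2F1 mouse embryos in 14 groups of 3. Embryos injected at the 1-cell stage received a morpholino, an antisense oligomer that blocks translation or splicing of its target and need not lower that mRNA, and the labels do not say which action each oligomer has. At 44 h after injection there were Oct4 morpholino, Sall4 morpholino, control morpholino and uninjected embryos that form 1 experiment, and Nanog morpholino, control morpholino and uninjected embryos of the Nanog experiment. At 20 h the Oct4 experiment had Oct4 morpholino and uninjected embryos, the Sall4 experiment had Sall4 morpholino and uninjected embryos, and the Nanog experiment again had all 3 kinds. The control morpholino targets a sequence that the mouse lacks. All groups share the culture in human tubal fluid with serum supplement and RNA amplification from small amounts. No control morpholino was in the 20 h Oct4 and Sall4 experiments, so there the oligomer's target and the act of injection cannot be told apart. Bulk RNA was read, so fewer cells of a type and less RNA per cell cannot be told apart either.

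Ribosome assembly begins in the nucleolus, where RNA polymerase I transcribes a long precursor RNA. Small nucleolar RNPs of the box C/D and box H/ACA kind guide its methylation and pseudouridylation. The SSU processome, to which most Utp proteins belong, folds and cleaves the part that becomes the small subunit, and other factors such as the Pes1, Bop1 and Wdr12 complex process the large subunit RNA. The early mouse embryo starts with inactive nucleolus precursor bodies and builds working nucleoli after its own genome is switched on. By role, the members comprise 25 factors of the small subunit, 12 of the large subunit, 4 box H/ACA proteins, 3 box C/D proteins, 3 nucleolar chaperones and 1 other gene, the rRNA base methyltransferase Rrp8.

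The promoter windows of 5 members that the results below turn on are printed so that their sequence can be read beside their values. Each is the 250 bases before the annotated start, on the gene's strand, from RefSeq on GRCm38.p6, and the table held 48 such windows for 40 of the 48 members, some of which have several annotated starts. Capitals mark matches on either strand to any of 6 motifs: the E-box CACGTG, the octamer ATGCAAAT, the CCAAT box, the TATA box TATAAA, the Ets core CCGGAA and the NRF1 core, GCGCA followed by TGCGC. The windows lie at chrX:75095604-75095853 (+ strand) for Dkc1, chr10:88826815-88827064 (- strand) for Utp20, chrX:48256684-48256933 (+ strand) for Utp14a, chr1:78658190-78658439 (+ strand) for Utp14b and chr1:186749359-186749608 (- strand) for Rrp15.
Dkc1: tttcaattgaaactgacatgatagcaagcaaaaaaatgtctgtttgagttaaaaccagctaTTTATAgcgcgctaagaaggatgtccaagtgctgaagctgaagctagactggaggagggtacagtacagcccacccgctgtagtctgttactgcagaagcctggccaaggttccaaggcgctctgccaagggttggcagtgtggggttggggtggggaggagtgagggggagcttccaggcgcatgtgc
Utp20: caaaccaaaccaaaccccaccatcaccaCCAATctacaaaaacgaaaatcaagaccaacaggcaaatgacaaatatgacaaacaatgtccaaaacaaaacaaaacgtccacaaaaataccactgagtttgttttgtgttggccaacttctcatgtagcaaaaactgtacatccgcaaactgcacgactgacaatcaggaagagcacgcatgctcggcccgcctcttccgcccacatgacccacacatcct
Utp14a: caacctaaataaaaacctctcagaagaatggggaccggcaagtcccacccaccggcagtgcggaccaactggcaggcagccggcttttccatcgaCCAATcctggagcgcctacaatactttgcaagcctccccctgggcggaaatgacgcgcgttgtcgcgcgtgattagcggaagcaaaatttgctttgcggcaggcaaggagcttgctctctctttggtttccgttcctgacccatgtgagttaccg
Utp14b: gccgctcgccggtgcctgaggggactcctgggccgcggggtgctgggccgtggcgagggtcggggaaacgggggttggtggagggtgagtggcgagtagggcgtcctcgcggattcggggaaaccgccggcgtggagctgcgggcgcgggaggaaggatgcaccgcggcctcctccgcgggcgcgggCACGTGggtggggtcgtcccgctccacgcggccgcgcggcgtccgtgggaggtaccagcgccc
Rrp15: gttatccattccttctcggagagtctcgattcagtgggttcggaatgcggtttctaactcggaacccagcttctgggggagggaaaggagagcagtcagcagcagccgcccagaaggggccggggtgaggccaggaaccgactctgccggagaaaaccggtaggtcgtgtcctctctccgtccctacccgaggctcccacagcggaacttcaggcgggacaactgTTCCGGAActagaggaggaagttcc

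Dkc1 held a match to the TATA box letters on the opposite strand, 189 bases before its start. Utp20 and Utp14a each held a CCAAT box, 222 and 155 bases before theirs. Utp14b held an E-box at 63 bases, and Rrp15 held a pair of overlapping Ets cores at 25 and 23 bases. The Ets core was in 20 of the 48 member windows (41.7%), which belong to 17 members, and in 12.0% of all 32851 windows of that length. The E-box was in 6 of 48 (12.5%, against 6.02% of all windows), the CCAAT box in 16 (33.3%, against 33.8%), the TATA box in 3 (6.25%, against 12.4%), and the octamer, bound by Oct4 among others, in 1, that of Wdr43 (2.08%, against 1.6%). Windows of 1 gene can share sequence. The NRF1 core was in 0 member windows and in 0.782% of all. Member windows had a median GC content of 59.0%, against 52.4% in all windows, and a median of 16 CG dinucleotides, against 6. The Ets core and the E-box each contain a CG, and the part of CG content in their shares was not tested. These matches describe letters and not binding.

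Arrays of the Nanog experiment were brighter throughout, with medians of 193 to 227, against 26.1 to 33.3 on the other 24 arrays. Levels were therefore not compared between the Nanog experiment and the others. Outside it, the comparison over time set 44 h arrays against 20 h arrays of other experiments. The 6 embryo and oocyte markers were above the array median in all 14 groups. Of 9 cumulus and granulosa markers on the arrays, 1 to 3 were above it, and of 10 blood, stroma and fibroblast markers, 1 to 4. Summed intensities of the granulosa markers were 151 to 272 with the Oct4 morpholino at 20 h, against 122 to 180 in uninjected embryos, and 135 to 232 with the Oct4 morpholino at 44 h, against 163 to 425 with the control morpholino. Their part in the results was not tested. Of the targets, Pou5f1 (Oct4) was lower at 44 h with all 3 morpholinos, by log2 values of -0.82 with Oct4, -0.88 with Sall4 and -0.70 with Nanog. Sall4 was lower with the Oct4 morpholino, at -0.76 at 20 h and -0.99 at 44 h. Not past the test were Pou5f1 with the Oct4 morpholino at 20 h (0.22), Sall4 with its own morpholino (0.00 at 20 h, 0.21 at 44 h) and Nanog with its own (-0.29 and -0.61).

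Member probe sets were bright, and their place on the arrays was higher at 44 h. The median member stood at the 93.0 to 94.5 percentile of the tested genes on every array at 44 h and at the 83.8 to 92.3 percentile at 20 h. The lowest of the 20 h arrays was from Oct4 morpholino embryos, whose 3 arrays spanned 83.8 to 88.8, against 87.4 to 91.0 in the uninjected embryos beside them. In uninjected embryos at 44 h outside the Nanog experiment, group means ran between 369 ± 43.1 for Nop16 and 10046 ± 498 for Npm1 (SD, n = 3), with Nhp2 and Nolc1 also at the bright end and Rrp9 and Rrp36 at the dim end. In the Nanog experiment they ran between 899 ± 183 for Bop1 and 13815 ± 653 for Npm1, with Nolc1 and Ncl also at the bright end. Probe sets bind with different strength, so these ends locate the signal and do not rank the transcripts.

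**Figure D1:**
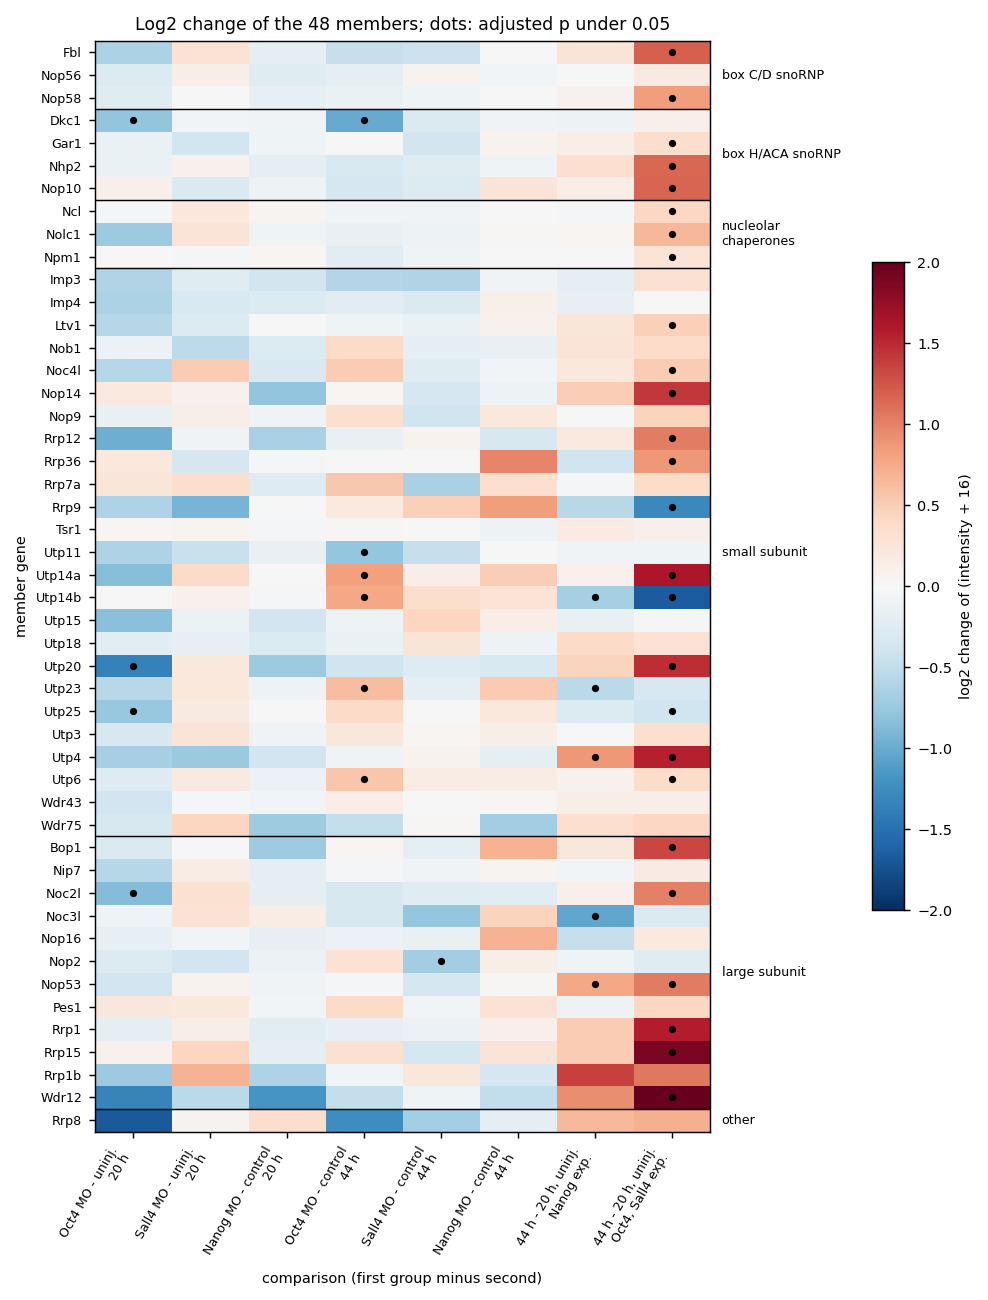
Log2 change of the 48 members (rows, grouped by role) in 8 comparisons (columns, first group minus second), with dots where the adjusted p was under 0.05. The right-hand column, 44 h minus 20 h outside the Nanog experiment, holds 26 dots, and no knockdown column holds more than 6.

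The change between 20 h and 44 h in uninjected embryos outside the Nanog experiment was the broadest seen. There, 23 of the 48 members rose and 3 fell (47.9% and 6.25%), against 20.4% and 25.1% of all genes tested, so 54.2% of members and 45.5% of all genes passed the test. Most genes tested were dimmer than the median member, and the part of brightness in these shares was not tested. The median member change was 0.41 on the log2 scale, against -0.06 over all genes tested. The 44 h arrays belong to another experiment than the 6 arrays at 20 h, so time and experiment cannot be told apart in these values. Summed intensities of the granulosa markers were 149 to 1025 at 44 h, against 109 to 180 at 20 h. Among them Star averaged 399 at 44 h, against 72.9 and 51.1 in the Oct4 and Sall4 experiments at 20 h. Greb1 averaged 3.66, against 34.0 and 37.7. Sums of the blood and stroma markers were 325 to 587, against 130 to 337. Pecam1 averaged 197, against 45.7 and 106, and Ptprc 4.54, against 10.15 and 7.62. The part of these markers was not tested.

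Wdr12, a partner of Pes1 and Bop1 in large subunit assembly, read 1409, 1505 and 2183 at 44 h. At 20 h it read 389, 279 and 379 in the Oct4 experiment and 272, 413 and 923 in the Sall4 experiment. All 3 arrays at 44 h lay above all 6 at 20 h, and the change was 2.00 ± 0.35 (SE, adjusted p = 1.87e-05). Rrp15, which acts in large subunit maturation, read 2957, 2103 and 1725 at 44 h. At 20 h it read 714, 430 and 671 in the Oct4 experiment and 689, 896 and 315 in the Sall4 experiment. It rose without overlap, by 1.88 ± 0.24 (adjusted p = 8.42e-08).

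Other large subunit factors rose as well: Rrp1 by 1.56, Bop1 by 1.33, the pre-60S factor Nop53 by 1.04 and the Noc2l protein, a partner of Noc3l in pre-60S export in yeast, by 1.01. In all, 6 of 12 large subunit factors rose and 0 fell. Nop2, an rRNA cytosine methyltransferase, had a change of -0.25 and did not pass the test.

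Among small subunit factors, 9 of 25 rose and 3 fell. The rises included Utp4 (1.55 ± 0.23), Utp20 (1.48 ± 0.22), Nop14 (1.42 ± 0.22) and Rrp12 (1.02 ± 0.24), and with smaller changes Rrp36, Noc4l, Ltv1 and Utp6. Utp20, a large scaffold protein of the processome, read 1738, 1322 and 1998 at 44 h, against 454 to 742 over the 6 arrays at 20 h. The falls were Utp14b (-1.66 ± 0.12), Rrp9 (-1.28 ± 0.38), the U3 snoRNP protein, and Utp25 (-0.40 ± 0.15). Rrp9 read 442, 379 and 378 at 44 h, against 654 to 981 in the Oct4 experiment at 20 h and 757, 709 and 3223 in the Sall4 experiment. The last value stood far above the other 5 arrays at 20 h.

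Among the small nucleolar RNP proteins, 2 of 3 of the box C/D kind and 3 of 4 of the box H/ACA kind rose, and 0 fell. Fibrillarin (Fbl), the methyltransferase of box C/D RNPs, rose by 1.20 ± 0.22, its partner Nop58 by 0.84 ± 0.12, and Nop56 had 0.18 without passing. Of the box H/ACA proteins, Nop10 (1.17 ± 0.20), Nhp2 (1.16 ± 0.19) and Gar1 (0.36 ± 0.14) rose, and Dkc1, the pseudouridine synthase that carries them, had 0.10 ± 0.17 (adjusted p = 0.659), with -0.03 and -0.11 for its other probe sets. All 3 chaperones rose: Nolc1 by 0.66, nucleolin (Ncl) by 0.41 and nucleophosmin (Npm1) by 0.28. With quantile normalization Ncl, Npm1 and Utp25 no longer passed, while the 10 largest rises and the other 2 falls did. The remaining rises were not followed one by one through the alternatives.

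Utp14a and Utp14b ran in opposite directions. Utp14a is X-linked and encodes a processome protein, and Utp14b on chromosome 1 is its retrocopy, known in mouse for its role in spermatogenesis. Utp14a read 961, 1022 and 1225 at 44 h, against 522, 409 and 319 in the Oct4 experiment and 284, 452 and 160 in the Sall4 experiment at 20 h. Utp14b read 1347, 1253 and 1392 at 44 h, against 4146, 3714 and 4143 in the Oct4 experiment and 4587, 4648 and 4269 in the Sall4 experiment at 20 h. Neither gene's times overlapped, with changes of 1.62 ± 0.22 (adjusted p = 3.99e-07) for Utp14a and -1.66 ± 0.12 (adjusted p = 4.53e-13) for Utp14b. The genes are close in sequence, and a second, dimmer probe set of Utp14a had -0.47. How far each probe set reads the other gene's transcript was not tested.

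**Figure D2:**
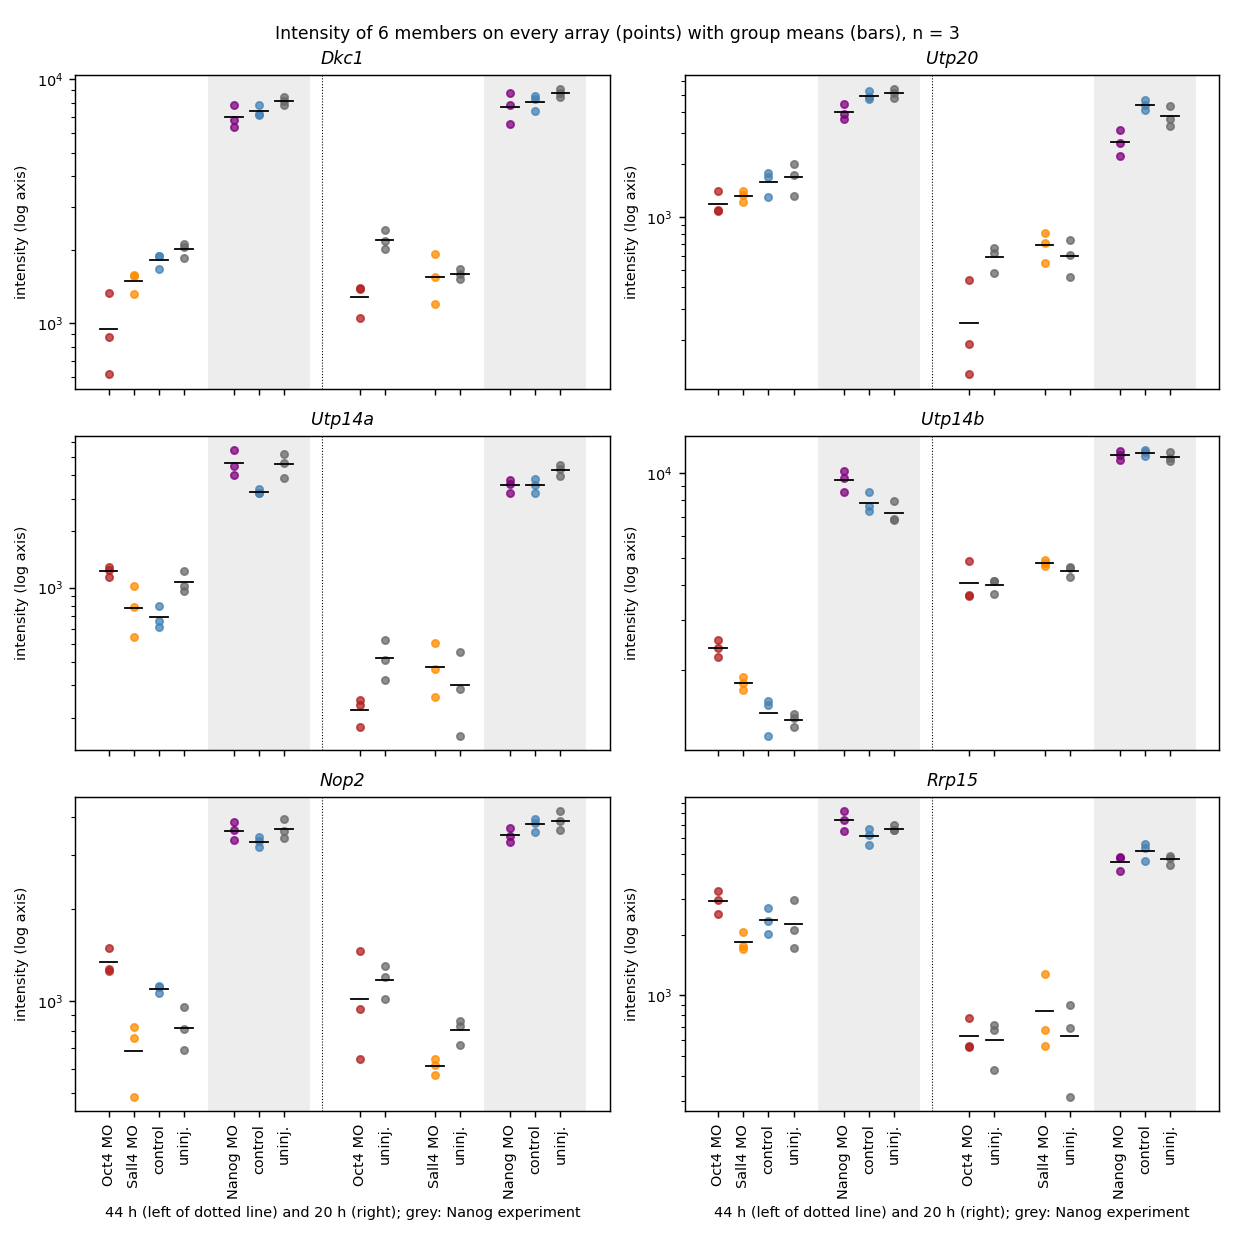
Intensity (log axis) of 6 members on every array, with bars at the group means (n = 3), 44 h left of the dotted line and 20 h right of it, grey for the Nanog experiment. Dkc1 had its lowest group means with the Oct4 morpholino, 940 at 44 h and 1274 at 20 h, and Utp14b at 44 h was 2215 to 2562 with the Oct4 morpholino and 1166 to 1554 with the control morpholino.

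Choosing the brightest probe set gave the smaller change for most genes with several. Of the 31 members with several probe sets, 19 had only positive changes over this interval and 12 had changes of both signs. In 23 of the 31, the other probe sets averaged a higher change than the brightest. The 5 probe sets of Ncl spanned 0.15 to 2.81, and the 3 of Nolc1 spanned 0.66 to 2.35. Among called members, the probe sets of Bop1, Utp14a and Utp25 disagreed in sign.

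The same interval in the Nanog experiment, where both times lie in 1 experiment, gave few calls. There, 2 members rose and 3 fell, 4.17% and 6.25% of members, against 9.28% and 16.3% of all genes. In either direction 10.4% of members passed the test, against 25.6% of all genes. The median member change was 0.09, against 0.02 over all genes. Summed intensities of the blood and stroma markers were 2821 to 3785 at 44 h, against 1503 to 2212 at 20 h. Among them Pecam1 averaged 2027, against 837, and Col1a1 219, against 218. Sums of the granulosa markers were 1401 to 1647 at 44 h, against 1008 to 1503 at 20 h. Star averaged 932, against 549, and Greb1 37.0, against 215. The part of these markers was not tested. With quantile normalization, 8 rose and 3 fell, and with the arrays of that experiment alone 11 members passed. Without uninjected replicate 3 at 20 h, 3 passed.

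Utp4 read 6487, 7253 and 6475 at 44 h, against 3853, 4510 and 2881 at 20 h in the Nanog experiment, a rise of 0.87 ± 0.26 (adjusted p = 0.0131) without overlap. Nop53 read 6390, 6470 and 5804 at 44 h, against 3372, 3630 and 3848 at 20 h, and rose by 0.78 ± 0.18. Utp14b read 6896, 6795 and 7929 at 44 h, against 11297, 11895 and 11030 at 20 h. It fell by 0.66 on the log2 scale (adjusted p = 0.000324), again without overlap.

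Noc3l (-1.04 ± 0.33) and Utp23 (-0.54 ± 0.20), a factor of early small subunit processing, also fell, and each had another probe set of opposite sign. The landmark genes did not pass, with values of 0.44 for Utp20, 0.26 for Fbl, 0.23 for Bop1, 0.01 for Npm1, -0.02 for Ncl, -0.09 for Nop2 and -0.11 for Dkc1. Wdr12 was 8186, 8152 and 8158 at 44 h, against 3683, 5047 and 4230 at 20 h, a change of 0.93 that did not pass although the arrays did not overlap.

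Over all 48 members, 30 had a positive change in both sets of uninjected embryos, 9 a negative change in both and 9 opposite signs, so 81.2% had the same sign, against 74.7% of all genes tested. The Spearman correlation of the changes was 0.77 over the 48 members and 0.73 over all genes tested, a description over genes, which are not independent. The size of the change differed. The test of the difference, added after seeing the data, called 5 members with a higher change outside the Nanog experiment and 1 with a lower one (10.4% and 2.08% of members, against 3% and 3.74% of all genes, and in either direction 12.5%, against 6.74%). The higher ones were Utp14a (1.52 ± 0.34), Rrp15 (1.38 ± 0.36), Rrp1 (1.05), Nop10 (1.04) and Nop58 (0.75), and the lower one was Utp14b (-0.997 ± 0.183). With quantile normalization 1 of these 6 remained, Utp14a, and without uninjected replicate 3 of the Sall4 experiment 10 members passed. The brightness of the Nanog arrays moves with this difference, and its part was not tested.

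**Figure D3:**
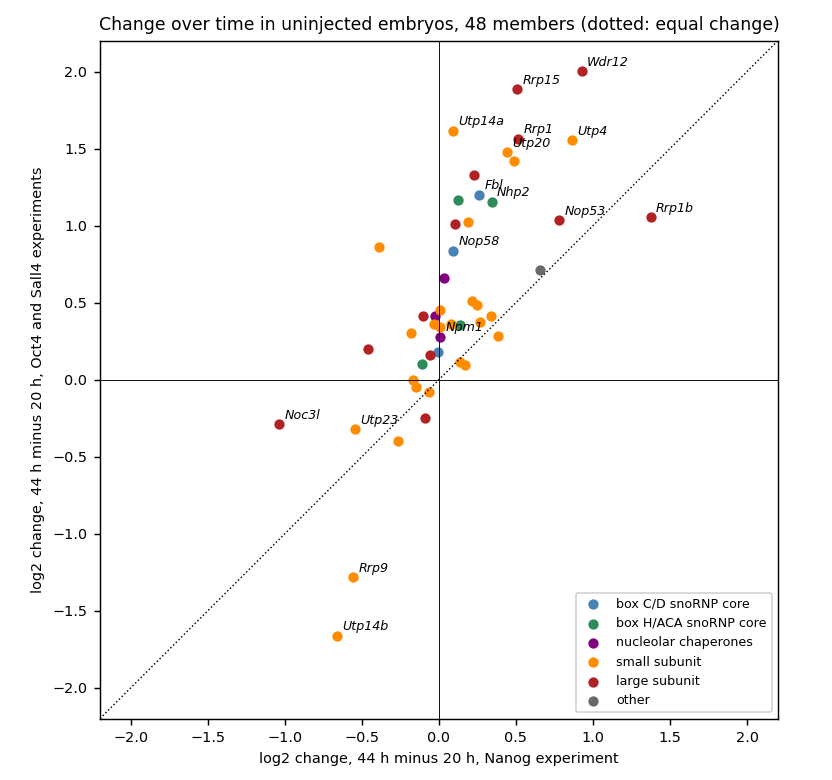
Log2 change between 20 h and 44 h in uninjected embryos for the 48 members, in the Nanog experiment (horizontal axis) and outside it (vertical axis), coloured by role, with a dotted line of equal change. Utp14a lies at 0.09 and 1.62, Wdr12 at 0.93 and 2.00, and Utp14b at -0.66 and -1.66.

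Neighbouring pathways were counted by the same test. Over the interval outside the Nanog experiment, 51 of 86 other ribosome biogenesis factors rose and 5 fell, 12 of 19 genes of RNA polymerase I and its factors rose and 3 fell, and 36 of 41 cytosolic ribosomal proteins rose and 0 fell. Of all genes tested, 20.4% rose and 25.1% fell there. In the Nanog experiment the counts were 11 higher and 1 lower, 0 and 0, and 17 higher and 0 lower. The shares of all genes were 9.28% higher and 16.3% lower. Of the 7 genes on the Myc family list, 1 rose and 2 fell outside the Nanog experiment, and 2 rose and 2 fell in it. The list joins Myc genes, which activate many biogenesis genes, with Max and the antagonists Mxd1, Mxi1 and Mnt. Its counts therefore give no direction of Myc activity.

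The question of the knockdown comparisons is which transcripts depend on each factor. With the Oct4 morpholino at 20 h, 4 members were lower than in uninjected embryos and 0 were higher (8.33% lower, against 1.84% of all genes tested and 2.02% called in either direction). The median member change was -0.32, against -0.02 over all genes, and 39 of the 48 had a negative change (81.2%, against 52.1%). In 12 members all 3 Oct4 morpholino arrays lay below all 3 uninjected arrays (11% of all genes did so), and in 0 members above (8.57%). At an unadjusted p under 0.05 there were 21 members (43.8%, against 10.7% of all genes). A gene bright in any group was tested, so some of all genes tested can be dim on these arrays. Most were dimmer than the median member here too. The part of brightness in these shares, and in those of the comparisons below, was not tested.

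Utp20 had 436, 188 and 127 with the Oct4 morpholino, against 669, 479 and 624 in uninjected embryos. The groups did not overlap, and the fall was 1.35 on the log2 scale (adjusted p = 0.00266). Dkc1 had 1046, 1381 and 1396 with the Oct4 morpholino, against 2165, 2011 and 2412 in uninjected embryos. Its change was -0.79 ± 0.19 (adjusted p = 0.0218), and its other probe sets had -0.73 and -0.71.

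Noc2l averaged 1076 ± 421 with the Oct4 morpholino and 1888 ± 119 in uninjected embryos (SD, n = 3), a change of -0.87 ± 0.22 (adjusted p = 0.0292). Utp25, an SSU processome factor, averaged 1298 ± 396 with the Oct4 morpholino and 2138 ± 138 in uninjected embryos, a change of -0.75 ± 0.18 (adjusted p = 0.0172). Each of these genes had a dimmer probe set of opposite sign, at 0.39 for Noc2l and 0.05 for Utp25. Negative values beyond that of Dkc1 that did not pass were those of Rrp8 (-1.68), Wdr12 (-1.33), Rrp12 (-0.97), Utp14a (-0.85) and Utp15 (-0.84). Among the landmark genes Fbl had -0.63, Bop1 -0.28, Nop2 -0.27, Ncl -0.05 and Npm1 0.01.

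The count depends on single arrays. Leaving out Oct4 morpholino replicate 1, 2 or 3 gave 13, 1 and 2 members past the test, and leaving out uninjected replicate 1, 2 or 3 gave 1, 4 and 1. Quantile normalization left 1 call, that of Utp20, and the arrays of this experiment alone left 0.

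Beside the members, 13 of 86 other biogenesis factors were lower and 0 higher, as were 2 and 0 of 19 RNA polymerase I genes, and 2 lower and 1 higher of 41 ribosomal proteins. Of all genes tested, 1.84% were lower and 0.174% higher. The Myc family list had 0 of 7 called, all with positive changes, activators and antagonists alike. Sall4 mRNA was among the genes lowered here, as given above.

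With the Sall4 morpholino at 20 h, limma called 0 members (0.233% of all genes), and 6 had an unadjusted p under 0.05 (12.5%, against 8.93% of all genes). The median change was 0.08, against 0.03 over all genes, and 28 of 48 values were positive (58.3%, against 53%). Dkc1 had 1543, 1909 and 1198, against 1516, 1661 and 1588 in uninjected embryos, which overlap, and Utp20 had 814, 707 and 546, against 742, 604 and 454. Their changes were -0.06 and 0.20, and the other landmark genes lay between -0.38 for Nop2 and 0.28 for Fbl. The changes with the Oct4 and the Sall4 morpholino at 20 h were not tested against each other.

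With the Nanog morpholino at 20 h, limma also called 0 members, against 0.62% of all genes, and 5 had an unadjusted p under 0.05 (10.4%, against 7.89% of all genes). Relative to the control morpholino, 42 of 48 changes were negative (87.5%, against 52.4% of all genes), with a median of -0.15, against -0.02. In 13 members the 3 Nanog morpholino arrays lay below the 3 control morpholino arrays (8.06% of all genes did so), and in 0 members above (5.5%). Utp20 read 2642, 2223 and 3149 with the Nanog morpholino, against 4361, 4101 and 4644 with the control morpholino, without overlap and with a change of -0.72 ± 0.26 (adjusted p = 0.321). Wdr12 read 1056, 3288 and 2564, against 4104, 5234 and 4959 with the control morpholino, a change of -1.19. Bop1 had -0.71 and the other landmark genes lay between -0.18 for Fbl and 0.05 for Ncl. The counts of signs and of arrays without overlap were made against the control morpholino only. Most member changes were negative against uninjected embryos too, but the share of all genes was not counted there. Against uninjected embryos, Wdr12 had -1.04, Utp20 -0.49, Dkc1 -0.20, Nop2 -0.16, Bop1 and Fbl -0.15, and Ncl and Npm1 0.00, all without passing. The mean of all probe sets of a gene gave 2 calls.

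At 44 h the Oct4 morpholino moved members in both directions. Relative to the control morpholino, 4 rose and 2 fell (8.33% and 4.17%, in all 12.5%), against 5.38% and 6.18% of all genes tested, in all 11.6%. That share is near the background. The median was -0.07, against 0.02 over all genes, and the called members were Dkc1 and 5 of the 25 small subunit factors.

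Dkc1 read 614, 875 and 1330 with the Oct4 morpholino, against 1671, 1888 and 1889 with the control morpholino and 1851, 2051 and 2118 in uninjected embryos. All 3 knockdown arrays lay below all 6 others. The change against the control morpholino was -1.01 ± 0.19 (adjusted p = 0.000533) and against uninjected embryos -1.15 ± 0.19 (adjusted p = 7.89e-05). Its other probe sets had -0.91 and -1.16, and the call was kept in each alternative run and without any array. The other box H/ACA proteins did not pass, with 0.01 for Gar1, -0.30 for Nhp2 and -0.34 for Nop10.

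Utp14b read 2215, 2399 and 2562 with the Oct4 morpholino, against 1498, 1166 and 1554 with the control morpholino. It rose by 0.77 ± 0.13 (adjusted p = 0.000188) without overlap, and this call too was kept in each alternative and without any array. Utp14a read 1295, 1241 and 1145, against 658, 615 and 798 with the control morpholino, and rose by 0.82 ± 0.26 (adjusted p = 0.033), with 1.16 for its dimmer probe set. Uninjected embryos had 961, 1022 and 1225 for Utp14a, which overlaps the Oct4 morpholino values, and against them the gene did not pass.

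Another 3 small subunit factors passed. Utp23 averaged 2553 ± 572 with the Oct4 morpholino and 1640 ± 142 with the control morpholino (0.61 ± 0.20, adjusted p = 0.0456). Utp6 averaged 3604 ± 297 with the Oct4 morpholino and 2452 ± 125 with the control morpholino (0.55 ± 0.17, adjusted p = 0.0286). Utp11 read 926, 1801 and 1420 with the Oct4 morpholino, against 2324, 2029 and 2583 with the control morpholino, and fell by 0.78 (adjusted p = 0.0129). Each of these 3 genes had a probe set of opposite sign.

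The remaining landmark genes did not pass with the Oct4 morpholino at 44 h: Fbl had -0.46, Utp20 -0.40, Npm1 -0.20, Ncl -0.06, Bop1 0.04 and Nop2 0.28. Against uninjected embryos Nop2 passed, at 0.71 ± 0.20 (adjusted p = 0.0124), and 6 members passed in all: Dkc1, Nop2, Utp11, Utp14b, Utp23 and Utp6. Of the 48 members, 26 had negative changes at both times, 13 were negative at 20 h and positive at 44 h, 7 were positive at both and 2 positive at 20 h and negative at 44 h. The 20 h values are against uninjected and the 44 h values against control-injected embryos of another experiment, and the times were not tested against each other. Counts of calls were 3 or 4 when any 1 array was left out, with 4 only without Oct4 morpholino replicate 3, and 2, Dkc1 and Utp14b, with the arrays of this experiment alone.

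**Figure D4:**
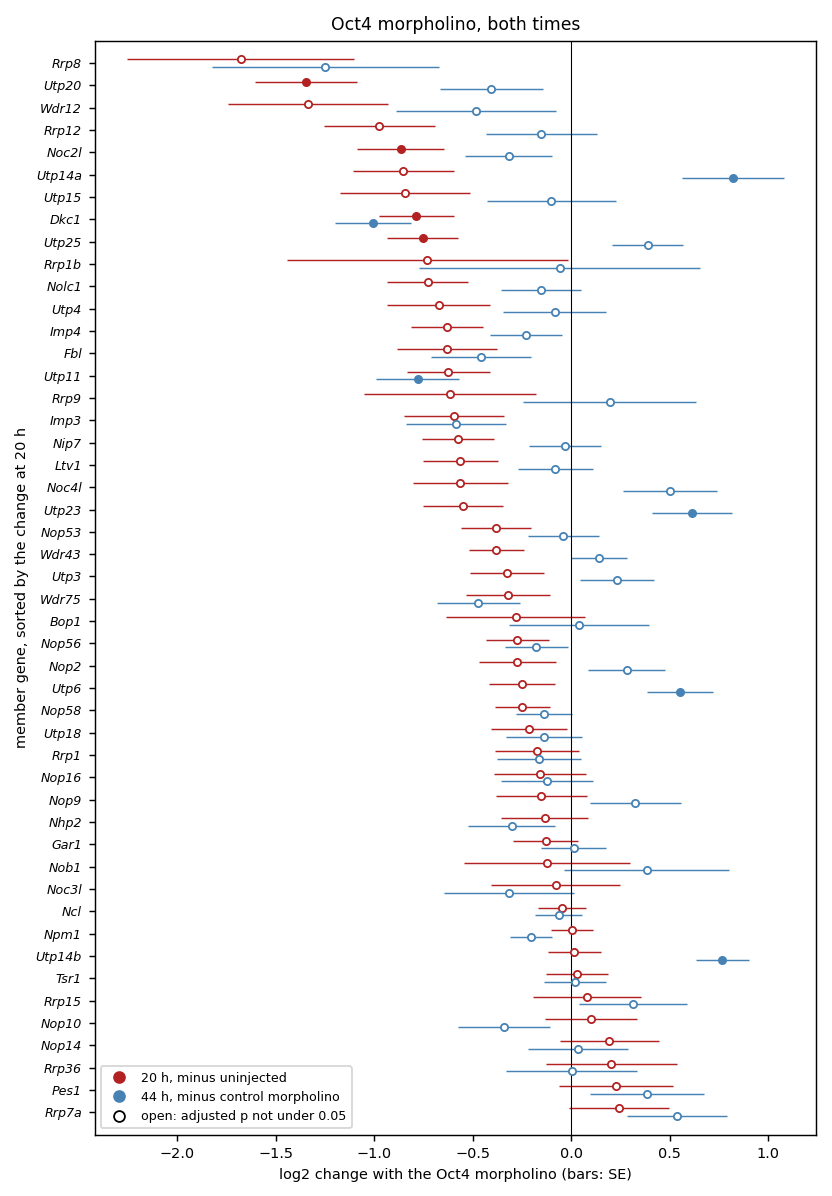
Log2 change (points, with SE bars) of each member with the Oct4 morpholino at 20 h (red, minus uninjected) and at 44 h (blue, minus control morpholino), filled where the adjusted p was under 0.05, genes sorted by the 20 h value. Dkc1 is filled at both times, at -0.79 and -1.01, and Utp14a lies at -0.85 at 20 h and 0.82 at 44 h.

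Nearby lists at 44 h with the Oct4 morpholino had 9 lower and 3 higher of 86 other biogenesis factors, 2 lower and 0 higher of 19 RNA polymerase I genes and 3 lower and 1 higher of 41 ribosomal proteins. The shares of all genes were 6.18% lower and 5.38% higher. Of 11 p53 targets, a pathway that responds to faulty ribosome assembly in mammalian cells, 4 were higher and 0 lower with the Oct4 morpholino, 4 and 0 with the Nanog morpholino and 1 and 0 with the Sall4 morpholino. Of all genes tested, 5.38% were higher with the Oct4 and 1.83% with the Sall4 morpholino. With the Nanog morpholino 5.01% of all genes passed in either direction. The part of the p53 pathway in the member values was not tested.

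With the Sall4 morpholino at 44 h, 1 member fell, Nop2, and 0 rose (2.08% lower, against 2.13% of all genes tested lower and 1.83% higher, 3.97% in all). Nop2 read 485, 755 and 824 with the Sall4 morpholino, against 1111, 1116 and 1060 with the control morpholino and 691, 953 and 809 in uninjected embryos. The knockdown lay below the control-injected arrays and overlapped the uninjected ones. The change against the control morpholino was -0.69 ± 0.20 (adjusted p = 0.0383), and it did not pass against uninjected embryos or with quantile normalization, centred arrays or the arrays of this experiment alone. It was also lost without Sall4 morpholino replicate 1 or 2 or without any 1 control morpholino array. The median member change was -0.13, against -0.02, with 36 of 48 negative (75%, against 51.9% of all genes), and Fbl had -0.42, Dkc1 -0.29, Utp20 -0.25, Bop1 -0.18, Npm1 -0.08 and Ncl -0.07.

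With the Nanog morpholino at 44 h, limma called 0 members, against 5.01% of all genes, and 4 had an unadjusted p under 0.05 (8.33%, against 17% of all genes). The median change was 0.02, against 0.05. Rrp36, a small subunit factor, read 4837, 3720 and 2483 with the Nanog morpholino, against 1544, 1753 and 2167 with the control morpholino, a change of 0.97. Against uninjected embryos, which read 1573, 1039 and 1339, it passed at 1.44 ± 0.33 (adjusted p = 0.00612), as did Noc3l (1.17), Nop16 (0.74) and Wdr75 (-0.68). Other alternatives gave 0 to 3 calls. Of the landmark genes Bop1 had 0.70, Utp20 -0.31, Nop2 0.12, Dkc1 -0.08, and Ncl, Fbl and Npm1 lay between -0.00 and 0.02.

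Oct4 and Sall4 morpholino embryos at 44 h were compared directly. Against the Sall4 morpholino, 4 members were higher with the Oct4 morpholino and 1 was lower (8.33% and 2.08%, against 3.71% and 3.36% of all genes, and in all 10.4%, against 7.07%). Nop2 read 1490, 1275 and 1252 with the Oct4 morpholino, against 485, 755 and 824 with the Sall4 morpholino, without overlap (0.97 ± 0.20, adjusted p = 0.00163), and kept its call in each alternative. Rrp7a, of the small subunit, read 927, 1238 and 1092, against 579, 309 and 555 (1.19 ± 0.25, adjusted p = 0.00269), with a dimmer probe set at -1.45.

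Utp23 (0.80 ± 0.20) and Nop9 (0.73 ± 0.23), which binds small subunit precursor RNA in yeast, were also higher with the Oct4 morpholino. Dkc1 read 614, 875 and 1330 with the Oct4 morpholino, against 1558, 1313 and 1574 with the Sall4 morpholino, which overlap on 1 array, and had -0.71 ± 0.19 (adjusted p = 0.018). Utp14b had 0.41 and missed the threshold (adjusted p = 0.0559), as did Utp14a at 0.68. The landmark genes Fbl (-0.03), Ncl (0.01), Npm1 (-0.13), Utp20 (-0.15) and Bop1 (0.22) did not pass. The count was 2 without Oct4 morpholino replicate 2, 3 without replicate 1, 3 without Sall4 morpholino replicate 3, and 1 with the arrays of this experiment alone.

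The Oct4 and Nanog morpholino effects at 44 h differed in 0 members by limma's test of the difference (2.13% of all genes), and 5 had an unadjusted p under 0.05 (10.4%, against 14.7% of all genes). Dkc1 came closest of the landmark genes, with -0.93 ± 0.27 (adjusted p = 0.0652), and Utp14b had 0.50, Bop1 -0.66, Fbl -0.46, Npm1 -0.20, Nop2 0.16, Utp20 -0.10 and Ncl -0.08. The Dkc1 call with the Oct4 morpholino is therefore not shown to differ from the Nanog morpholino value of -0.08. Without Oct4 morpholino replicate 3, 1 member passed. The Nanog morpholino effects at 44 h and 20 h differed in 0 members (0.827% of all genes), with 4 at an unadjusted p under 0.05 (8.33%, against 10.9%), while 42 of 48 differences were positive (87.5%, against 57.7% of all genes). Bop1 had a difference of 1.41 ± 0.50 (adjusted p = 0.227), Utp20 0.41, Nop2 0.23, Fbl 0.19, Dkc1 -0.00, Ncl -0.03 and Npm1 -0.04. These differences also hold the control morpholino's own changes, which for Bop1 were 0.57 at 20 h and -0.32 at 44 h. Against uninjected embryos Bop1 had -0.15 at 20 h and 0.38 at 44 h with the Nanog morpholino, and that difference was not tested.

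Injection of the control morpholino moved no member past the test. Against uninjected embryos limma called 0 members at 44 h outside the Nanog experiment (0.0969% of all genes), 0 at 20 h in the Nanog experiment (0.0904%) and 0 at 44 h in the Nanog experiment (0.349%). Unadjusted p-values under 0.05 numbered 2, 0 and 1 (4.17%, 0% and 2.08%, against 5.52%, 5.82% and 10.4% of all genes). At 44 h in the Nanog experiment 40 of 48 member changes were negative (83.3%, against 60.8% of all genes), with a median of -0.11, against -0.09. Over the 3 comparisons, Dkc1 had -0.14, -0.12 and -0.14, Utp20 -0.08, 0.23 and -0.04, Nop2 0.43, -0.04 and -0.14, and Bop1 -0.23, 0.57 and -0.32. Fbl, Ncl and Npm1 stayed between -0.21 and 0.04. Utp14a, which rose with the Oct4 morpholino at 44 h, had -0.62 ± 0.26 here at 44 h outside the Nanog experiment (adjusted p = 0.759), with 658, 615 and 798 in control-injected embryos, against 961, 1022 and 1225 in uninjected embryos. No member passed in 2 or more of the 3 knockdown comparisons at 44 h.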

How the data were processed

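Values are linear intensities, 1 per probe set and array, as the authors deposited them in 1 table of 45101 probe sets and 42 arrays. The summary method and any normalization between arrays are not given in the sources used here, so differences between arrays in brightness remain in the values. Per the labels' protocols, RNA was isolated with a PicoPure kit and amplified with WT-Ovation One-Direct reagents. Low-input amplification can widen the spread of dim transcripts.

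Samples were grouped by their titles, in which arrays of a group carry numbers as biological replicates, so the error behind each p-value is the spread over such arrays. Gene names came from the platform annotation: 34958 had 1 symbol, 932 several, 9147 none and 64 were controls. The brightest probe set by mean log2(intensity + 16) stood for each gene. Genes with a group mean above 71.2, the median of the table, in any group were tested. All 42 arrays were fitted together by group with limma 3.58.1 in R 4.3.3, and each contrast was tested two-sided with limma's moderated statistic, Benjamini-Hochberg adjusted over 15479 genes, at a threshold of 0.05. Log2 changes understate dim genes. An exact test of 3 arrays against 3 cannot go below p = 0.1. The number of arrays limits the precision. On simulated data for the Oct4 comparison at 20 h over 15479 genes, 25% of changes of log2 size 1 and 68% of size 2 were recovered, with 8 false calls.

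Members, gene lists and the naming rule were chosen with earlier results of these data known. The rule names, in each comparison, members past the test (up to 10 rises and 10 falls), 7 landmark genes (Npm1, Ncl, Fbl, Dkc1, Bop1, Nop2, Utp20), the ends of the levels and members whose probe sets disagree in sign. Any other member given with a value was chosen after its values were seen. Titles number replicates alike in all groups. Deviations of same-numbered arrays correlated at -0.05 to 0.14 over 23 pairs of groups, and in 1 pair, control morpholino and uninjected embryos at 20 h in the Nanog experiment, every pair was over 0.1 (0.111 to 0.120). There the blocked fit also called 0 members. Some other pairs of groups in that experiment had every same-numbered value above those of other numbers. Uninjected and control morpholino arrays at 44 h had 0.063 to 0.134, against -0.099 to 0.012. Alternatives changed the pseudocount, filter, normalization, probe set rule, arrays fitted, control group, replicate block and each array in turn. Promoter windows were read from the RefSeq table with Python 3.11.15, and figures drawn with matplotlib 3.10.9.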

Additional observations from a re-analysis of the deposited data

Results flagged for a closer look

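Differences between the Oct4 and the Sall4 morpholino at 44 h passed limma's test for 5 members, on the log2 scale: Dkc1 at -0.71, Nop2 at 0.97, Nop9 at 0.73, Rrp7a at 1.19 and Utp23 at 0.80. The change over time in uninjected embryos differed between the Oct4 and Sall4 experiments and the Nanog experiment for 6 members: Nop10 by 1.04, Nop58 by 0.75, Rrp1 by 1.05, Rrp15 by 1.38, Utp14a by 1.52 and Utp14b by -0.997. This second test was added after seeing the data, and its arrays differ in experiment and overall brightness, whose part was not tested.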

How the results depend on the processing

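The calls followed through the settings were the up to 10 largest rises and 10 largest falls per comparison and those of landmark genes. Of these 42 calls, 15 were kept in every setting run, 23 were kept without each array in turn, and all 42 had the same sign throughout. The smaller rises over time outside the Nanog experiment, such as those of Nhp2, Nop53 and Gar1, were not among them. Among values that did not pass, Ncl over time in uninjected embryos of the Nanog experiment, -0.02 from the brightest probe set, was 0.53 (adjusted p = 0.00794) with the mean of all its probe sets. With the Oct4 morpholino at 44 h, Nop2 (0.28) was 0.71 (adjusted p = 0.0124) against uninjected embryos, and Npm1 (-0.20) was -0.42 (adjusted p = 0.0195) with the mean of all its probe sets. Dkc1 passed for the Oct4 effect minus the Nanog effect, and Fbl, Ncl and Utp20 for the difference over time between experiments, in some settings. Counts of members called moved as follows, and the cause was not tested. With quantile normalization there was 1 with the Oct4 morpholino at 20 h, 0 with the Sall4 morpholino at 44 h, 3 with the Nanog morpholino at 44 h, 11 over time in the Nanog experiment and 1 for the difference of changes over time between experiments. With centred arrays there were 0 with the Sall4 and 1 with the Nanog morpholino at 44 h, and centring moved the median change of all genes over time outside the Nanog experiment to 0.16, against -0.06, and that of the members to 0.63, against 0.41. With a pseudocount of 64 there were 3 with the Nanog morpholino at 44 h and 1 for the Oct4 effect minus the Nanog effect. With the mean of all probe sets there were 2 with the Nanog morpholino at each time. With only the arrays of the experiment there were 0 with the Oct4 morpholino at 20 h, and at 44 h 2 with Oct4, 0 with Sall4, 2 with Nanog and 1 for Oct4 minus Sall4, and 11 over time in the Nanog experiment. Against uninjected embryos there were 0 with the Sall4 and 4 with the Nanog morpholino at 44 h. With the replicate number as a block there were 7 with the Oct4 morpholino at 20 h and 1 with the Nanog morpholino at 44 h. The titles tie these samples only by that number. Deviations of same-numbered Nanog and control morpholino arrays at 44 h correlated at 0.018 to 0.063, and of other numbers at -0.041 to 0.017. For Oct4 morpholino and uninjected arrays at 20 h the values were -0.008 to 0.092, and -0.094 to 0.061. Leaving out 1 array at a time gave 1 to 13 with the Oct4 morpholino at 20 h, 3 to 4 at 44 h, 0 to 1 with Sall4 at 44 h, 0 to 2 with Nanog at 44 h, 2 to 4 for Oct4 minus Sall4, 3 to 4 over time in the Nanog experiment, 20 to 26 outside it, 0 to 1 for the Oct4 effect minus the Nanog effect, 4 to 10 for the difference over time between experiments, and 0 in the remaining comparisons.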
